A study of Mus musculus with 18 samples.

Results

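The E proteins *Tcf3*, *Tcf4* and *Tcf12* and their inhibitors *Id1*, *Id2* and *Id3* were described in sorted fetal thymocytes of WT, *Gli3*+/- and *Gli3*-/- mice. They are 6 of the 22180 genes tested, and each was found by its symbol on 1 row of the array that carries no other gene symbol (NCBI gene 21423 for *Tcf3*, 21413 for *Tcf4*, 21406 for *Tcf12*, 15901 for *Id1*, 15902 for *Id2* and 15903 for *Id3*). Thymocytes were taken at E18.5 and sorted for CD4, CD8 and CD69 into CD69- DP cells (CD4+ CD8+, not yet signalled through the TCR), CD69+ DP cells (CD4+ CD8+, signalled for positive selection) and SP4 cells (CD4 single positive), with 2 Affymetrix Mouse Gene 2.0ST arrays for each of the 9 groups, 18 in all. All mice were on a C57BL/6 background, and the *Gli3* mutation was carried in every tissue, so that cells of the thymic stroma had lost *Gli3* as well as the thymocytes. The array titles name 2 sources for each genotype, and carry the same name in all 3 populations, without saying whether a source was 1 embryo or a pool, so p-values measure only the spread between these arrays. *Xist*, the RNA of the inactive X chromosome, read 39.7 to 52.4 on the first WT source and 2726 to 2946 on the second, so the WT sources were not the same RNA. *Eif2s3y*, a Y-linked gene, read 311 to 321 on the second WT source. On *Gli3*+/- arrays it read 229 to 489 beside *Xist* of 2977 to 3330, and on *Gli3*-/- arrays 15.1 to 22.5. The second WT source and both *Gli3*+/- sources thus carried signals of both sexes.

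E proteins are basic helix-loop-helix transcription factors. They pair with each other and bind E boxes, and in the thymus they drive the early T-cell programme, rearrangement of TCR genes and the DP stage. Id proteins have the helix-loop-helix but no basic region, so that a pair of an Id and an E protein cannot bind DNA. *Tcf3* and *Tcf12* encode the main E proteins of thymocytes (the product of *Tcf12* is also called HEB), while *Tcf4* is best known in plasmacytoid dendritic cells. *Id3* is induced by TCR signals through Egr factors during positive selection, *Id2* is known for innate lymphoid cells and effector T-cells, and *Id1* is a target of BMP signals in many tissues.

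The RefSeq promoters of the genes that changed between populations are shown here because *Id2* and *Id3* were higher, and *Tcf12* lower, in later populations. RefSeq (GRCm38.p6) had a promoter in the table used here for 4 of the 6 genes. The 250 bases before a start of *Id2*, *Id3* and *Tcf12* are given 5′ to 3′, with matches to the E box (CANNTG) in capitals. Of the listed *Tcf12* promoters the one farthest upstream is shown. The *Tcf12* gene as annotated extends to base 72111893, inside that window.
Id2, minus strand of chr12:25096093-25096342: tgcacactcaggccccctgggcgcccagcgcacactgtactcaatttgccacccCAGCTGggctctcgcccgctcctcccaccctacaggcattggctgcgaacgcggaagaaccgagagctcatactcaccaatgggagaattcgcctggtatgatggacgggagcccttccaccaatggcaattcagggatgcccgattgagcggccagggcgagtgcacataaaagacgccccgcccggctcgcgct
Id3, plus strand of chr4:136143572-136143821: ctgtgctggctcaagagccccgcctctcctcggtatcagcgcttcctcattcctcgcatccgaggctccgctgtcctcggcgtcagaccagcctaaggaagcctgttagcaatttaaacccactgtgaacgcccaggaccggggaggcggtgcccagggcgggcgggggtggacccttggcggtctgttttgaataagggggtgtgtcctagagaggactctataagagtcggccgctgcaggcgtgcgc
Tcf12, minus strand of chr9:72111820-72112069: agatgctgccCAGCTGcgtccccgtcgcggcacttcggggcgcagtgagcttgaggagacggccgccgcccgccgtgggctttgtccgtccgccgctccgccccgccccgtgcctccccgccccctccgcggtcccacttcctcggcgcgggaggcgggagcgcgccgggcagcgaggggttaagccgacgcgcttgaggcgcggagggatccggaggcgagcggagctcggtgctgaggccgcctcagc
The E box CANNTG is its own reverse complement in form, and 66.2% of 32851 promoters of the same length held at least 1. In the windows shown *Id2* and *Tcf12* each had 1 match, both CAGCTG, a form that 13.0% of promoters held, and *Id3* had none. Of the *Tcf12* promoters not shown, the next downstream had 1 E box that was not CAGCTG and 2 GC boxes (GGGCGG). The last had 0 of either. The Egr core GTGGGCG, searched on both strands, had 0 matches in the 3 windows and was in 7.02% of promoters. The GC box GGGCGG, also searched on both strands, had 1 match for *Id2*, 2 for *Id3* and 4 for *Tcf12*, and was in 32.7% of promoters. These matches describe the printed letters only.

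Intensities are the authors' normalised values on a linear scale, and each row was compared only with itself across arrays. The medians of the 18 arrays lay between 59.3 and 65.8. *Id1* was dimmer than the median row (62.7) on average, with a mean of 52.0, so differences in *Id1* are those of a row below the median. Of all rows 43.7% were dimmer than *Id1*. The other 5 genes were brighter than that row. *Gli3* itself was dimmer than the median row on all 18 arrays, at 29.4 to 37.1 in WT, 27.6 to 34.0 in *Gli3*+/- and 27.9 to 32.7 in *Gli3*-/- (log2 −0.13, SE 0.07, limma adjusted p = 0.9995 for *Gli3*-/- against WT), so its row did not check the genotype labels. Markers of thymocytes were bright on all arrays, and *Cd8a* fell from a mean of 4251 in CD69- DP to 2074 in SP4 cells, so SP4 arrays still carried *Cd8a* signal (log2 −1.08, SE 0.13, limma adjusted p = 0.000121).

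*Id2* was the member that changed most between populations. Its intensity on replicates 1 and 2 was, in CD69- DP cells, 66.9 and 134.0 for WT, with 64.2 and 189.5 for *Gli3*+/- and 65.2 and 149.3 for *Gli3*-/-. In CD69+ DP cells it was 274.2 and 248.5 for WT, with 253.0 and 196.2 for *Gli3*+/- and 204.2 and 245.4 for *Gli3*-/-. In SP4 cells it reached 967.5 and 804.0 for WT, with 710.1 and 316.3 for *Gli3*+/- and 629.3 and 546.9 for *Gli3*-/-. The 3 populations did not overlap on any array, the order being CD69- DP, CD69+ DP and SP4, although the highest CD69- DP array (189.5) came close to the lowest CD69+ DP array (196.2).

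**Figure D1:**
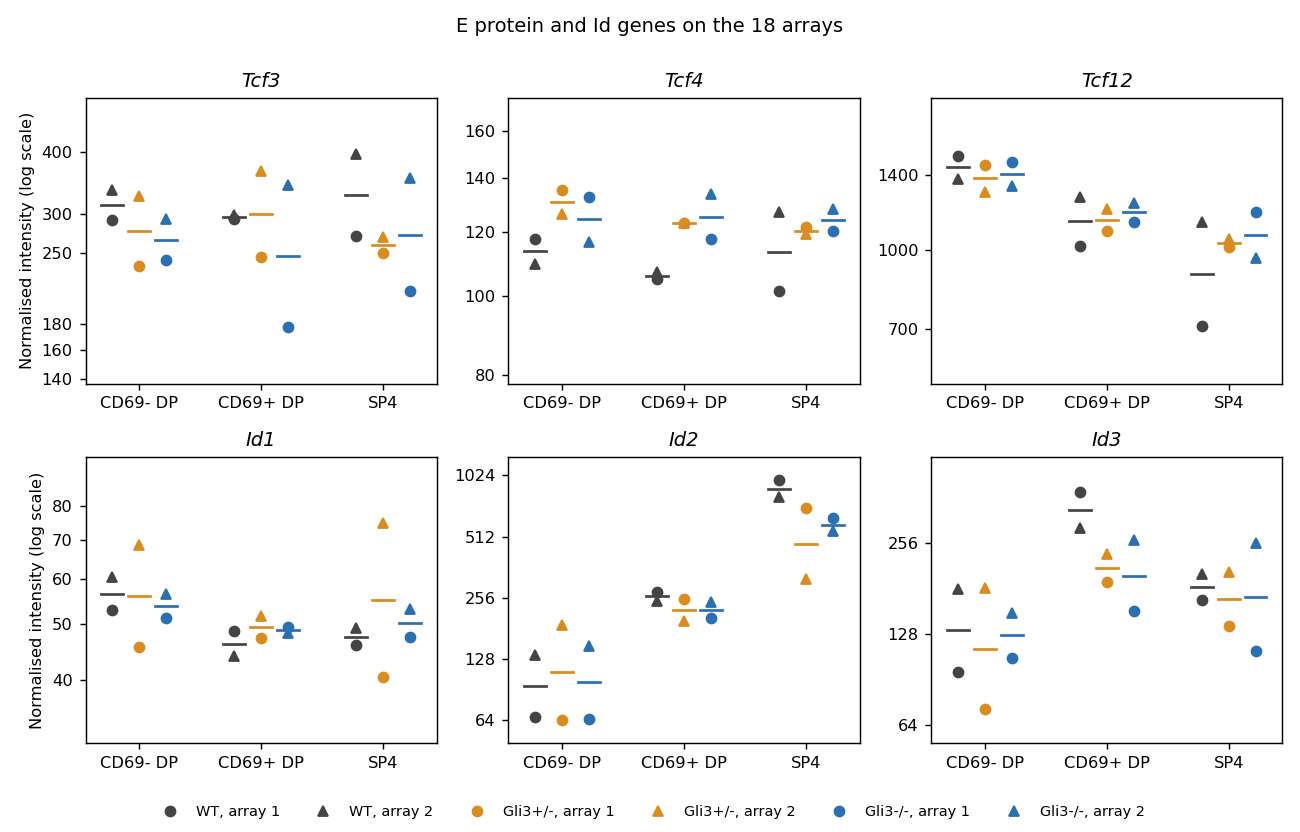
Normalised intensity (y axis, log scale) of the 6 genes in each population, with circles for arrays numbered 1, triangles for arrays numbered 2, colours for genotypes and short bars for the geometric mean of each group of 2 arrays. *Id2* climbs from 64.2 to 967.5, *Tcf12* declines from 1528.5 to 709.1, and *Id3* is highest in WT CD69+ DP cells (376.5).

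Averaged over the 3 genotypes, *Id2* rose 2.33-fold from CD69- DP to CD69+ DP, the first step (log2 +1.22, SE 0.29, limma adjusted p = 0.0186). That fit had no replicate block, and blocking on replicate number gave the first step an SE of 0.27 (limma adjusted p = 0.00676). Without the block *Id2* rose a further 2.66-fold from CD69+ DP to SP4, the second step (log2 +1.41, SE 0.29, adjusted p = 0.00975). Over both steps it rose 6.20-fold (log2 +2.63, SE 0.29, adjusted p = 6.01e-05). From bulk samples, more cells that express *Id2* and more *Id2* RNA in each cell cannot be told apart. Taking each replicate number alone, with the 3 genotypes standing in for replicates, the first step was log2 +1.89 among arrays numbered 1 (adjusted p = 3.71e-07) and +0.55 among arrays numbered 2 (adjusted p = 0.290). The second was +1.64 (adjusted p = 3.06e-06) and +1.18 (adjusted p = 0.0174). Over both steps the rise was +3.53 among arrays numbered 1 and +1.73 among arrays numbered 2. In CD69- DP cells the arrays numbered 1 read 64.2 to 66.9, near the median row (62.7), so the size of the rise is uncertain. The call at the first step was also lost, with an adjusted p of 0.0534 to 0.0607, when the first array of WT CD69- DP, *Gli3*-/- CD69- DP, WT CD69+ DP or *Gli3*+/- CD69+ DP was left out (log2 +1.02 to +1.20).

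*Id3* followed another course, with its peak in CD69+ DP cells. On replicates 1 and 2 CD69- DP cells had 95.9 and 180.8 for WT, with 72.7 and 180.9 for *Gli3*+/- and 106.8 and 150.3 for *Gli3*-/-. It reached 376.5 and 285.8 in WT CD69+ DP cells, while *Gli3*+/- arrays read 189.7 and 234.3 and *Gli3*-/- arrays 152.2 and 260.8. In SP4 cells it was 165.4 and 201.5 for WT, with 136.1 and 204.5 for *Gli3*+/- and 112.9 and 256.2 for *Gli3*-/-. Both arrays of CD69+ DP cells were above both of CD69- DP cells in each genotype, while the ranges of the populations as a whole overlapped.

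*Id3* rose 1.93-fold from CD69- DP to CD69+ DP averaged over genotypes (log2 +0.95, SE 0.26, limma adjusted p = 0.0412). It was log2 +1.29 among arrays numbered 1 (adjusted p = 0.000919) and +0.61 among arrays numbered 2 (adjusted p = 0.0245). The call was close to the threshold and was lost on leaving out 1 array for 9 of the 12 arrays compared (log2 +0.73 to +1.03, adjusted p 0.0540 to 0.123), the exceptions being the second arrays of WT and *Gli3*+/- CD69- DP and the first array of *Gli3*-/- CD69+ DP. These runs, like the p of 0.0412, came from a fit without a replicate block. Blocking on replicate number gave the same rise an SE of 0.17 (limma adjusted p = 0.00115), well under the threshold. From CD69+ DP to SP4 the unblocked difference was log2 −0.47 (SE 0.26, adjusted p = 0.356). SP4 and CD69- DP differed by log2 +0.48 (SE 0.26, adjusted p = 0.355). Neither passed, with or without the block. Blocked limma gave adjusted p of 0.0874 and 0.0724 (unadjusted p = 0.0130 and 0.0117, SE 0.17 each).

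*Id1* did not pass the test at either step. Its arrays ran from 45.6 to 68.5 (median 54.7) in CD69- DP, from 44.0 to 51.8 (median 48.5) in CD69+ DP and from 40.5 to 74.8 (median 48.4) in SP4 cells. The log2 difference was −0.20 (SE 0.13, 95% interval −0.49 to 0.09) at the first step and +0.08 (SE 0.13, 95% interval −0.21 to 0.37) at the second.

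Among the E proteins, *Tcf12* was highest in CD69- DP cells and the only one to differ between populations. Its intensity on replicates 1 and 2 of CD69- DP cells was 1528.5 and 1378.2 for WT, with 1464.1 and 1299.9 for *Gli3*+/- and 1484.9 and 1334.9 for *Gli3*-/-. In CD69+ DP cells it was 1017.8 and 1267.1 for WT, with 1086.7 and 1201.3 for *Gli3*+/- and 1134.0 and 1233.4 for *Gli3*-/-. In SP4 cells it was 709.1 and 1134.2 for WT, with 1010.9 and 1048.6 for *Gli3*+/- and 1186.3 and 964.1 for *Gli3*-/-. All 6 CD69- DP arrays were above all 12 others, whereas CD69+ DP and SP4 arrays overlapped.

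*Tcf12* fell from CD69- DP to SP4, 1.42-fold averaged over genotypes (log2 −0.50, SE 0.11, limma adjusted p = 0.00841). Neither step passed alone, with log2 −0.29 at the first (SE 0.11, adjusted p = 0.141) and −0.21 at the second (SE 0.11, adjusted p = 0.310). Over both steps it was −0.66 among arrays numbered 1 (adjusted p = 0.00463) and −0.35 among arrays numbered 2 (adjusted p = 0.0594). *Tcf12* and *Id2* had a Pearson r of −0.98 over the 9 group means and −0.83 over the 18 arrays, which is given as a description, since these points share 3 populations.

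*Tcf3* and *Tcf4* did not pass between any populations. *Tcf3* ran from 236.0 to 334.9 (median 292.2) in CD69- DP, from 177.8 to 366.0 (median 295.9) in CD69+ DP and from 210.0 to 395.6 (median 270.4) in SP4 cells. Its log2 difference was −0.03 at the first step (95% interval −0.41 to 0.36) and +0.03 at the second (−0.36 to 0.41), and both signs turned under quantile and cyclic loess normalisation. *Tcf4* ran from 109.7 to 135.3 (median 122.1) in CD69- DP, from 105.0 to 133.7 (median 120.5) in CD69+ DP and from 101.4 to 128.1 (median 121.1) in SP4 cells. Its log2 difference was −0.06 at the first step (95% interval −0.21 to 0.10) and +0.02 at the second (−0.14 to 0.17), the latter with the sign turned under both normalisations.

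**Figure D2:**
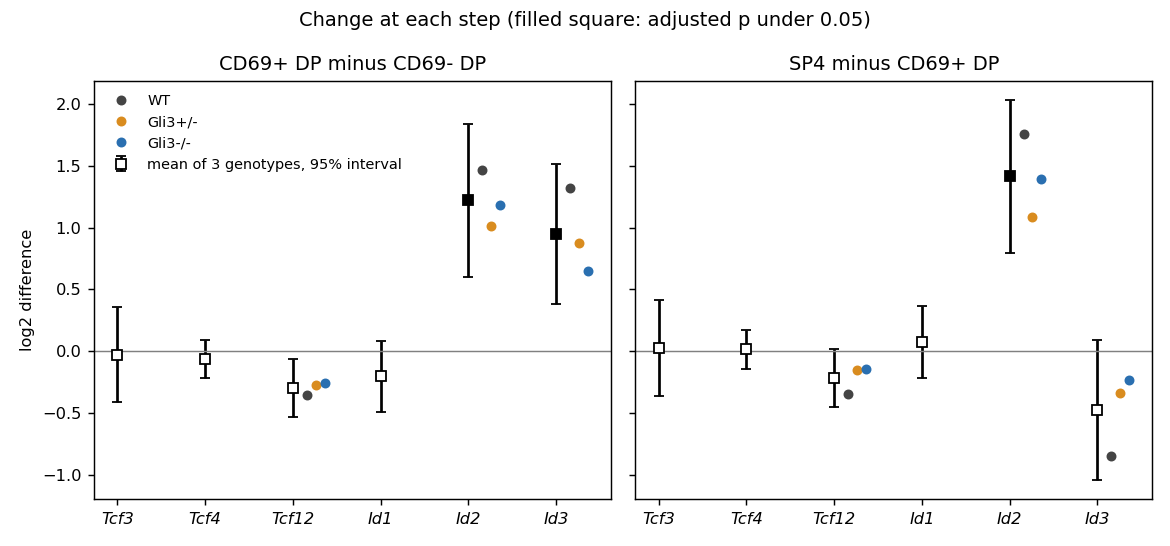
log2 difference (y axis) of the 6 genes from CD69- DP to CD69+ DP cells (left) and from CD69+ DP to SP4 cells (right), as squares with 95% intervals for the mean of the 3 genotypes and, for *Tcf12*, *Id2* and *Id3*, circles for each genotype. *Id2* is at +1.22 and +1.41, *Id3* at +0.95 and −0.47.

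In counts, 2 of the 6 genes passed at the first step, both higher (*Id2* and *Id3*), where 7.79% of all genes tested passed, 3.06% higher and 4.73% lower. At the second step 1 passed (*Id2*, higher), where 6.15% of all genes passed, 4.41% higher and 1.74% lower. Over both steps 2 passed (*Id2* higher, *Tcf12* lower), where 9.78% did, 5.94% higher and 3.84% lower. Arrays of the first step did not overlap for *Id2* and *Tcf12*, as for 5.87% of all genes, those of the second did not overlap for *Id2*, as for 4.46%, and SP4 and CD69- DP arrays did not overlap for *Id2* and *Tcf12*, as for 6.83%. With so few members these counts are a description.

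Within each genotype the 2 arrays of a group allowed less. Without a replicate block no member passed within a genotype at either step, where 0.681%, 0.189% and 0.289% of all genes passed at the first step in WT, *Gli3*+/- and *Gli3*-/-, and 0.618%, 0.0721% and 0.194% at the second. The first step of *Id2* was log2 +1.46 in WT, +1.01 in *Gli3*+/- and +1.18 in *Gli3*-/- (SE 0.50 each). Its second step was +1.76, +1.09 and +1.39 (SE 0.50 each). The first step of *Id3* was +1.32, +0.88 and +0.65 (SE 0.46 each), and its second −0.85, −0.34 and −0.23 (SE 0.46 each). With the replicate number as a block, *Id3* passed at the first step in WT (limma adjusted p = 0.0179). *Tcf12* was −0.35, −0.27 and −0.25 at the first step and −0.34, −0.15 and −0.15 at the second (SE 0.19 each). The sign was thus the same in all 3 genotypes for each of these genes and steps, and the WT value was the largest in size.

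None of the 6 genes passed for *Gli3* genotype, in any population or averaged over them. The adjusted p was 0.991 or more in each *Gli3*-/- and *Gli3*+/- comparison with WT, where 0.0135% of all genes passed for *Gli3*-/- in CD69- DP, 0.00902% in CD69+ DP and 0.0135% in SP4 cells, and 0% for *Gli3*+/-. Those that passed were the Y-linked *Eif2s3y* and *Kdm5d* in each population, with the Y-linked *Uty* in CD69- DP and *Gm17552* in SP4 cells. At an unadjusted p under 0.05 the count was 0 of 6 in each population, where 2.01%, 2.91% and 5.14% of all genes passed for *Gli3*-/- in the order CD69- DP, CD69+ DP and SP4, and 1.77%, 2.48% and 4.12% for *Gli3*+/-. In the average over populations it was 1 of 6 (*Tcf4*), where 3.80% of all genes passed for *Gli3*-/- and 3.83% for *Gli3*+/-. That average counts arrays of the same source in different populations as separate. Intervals were wide for the Id genes. *Id3* of *Gli3*-/- CD69+ DP cells differed from WT by log2 −0.72 (95% interval −1.70 to 0.26), with both arrays below both WT arrays. *Id2* of *Gli3*-/- SP4 cells differed by log2 −0.59 (95% interval −1.66 to 0.48), again with both arrays below both WT arrays. Myeloid markers were lower in the same cells, 8 of 10 neutrophil markers (median log2 −0.11) and 7 of 8 macrophage and dendritic cell markers (median −0.26), and none of them passed. *Camp*, a granule peptide of neutrophils, was at log2 −1.46 (limma adjusted p = 0.229), *S100a8* at −1.10, *Lyz2* at −0.92 and *Csf1r* at −0.49. The neutrophil sum was 1358 and 1239 in WT and 603 and 1162 in *Gli3*-/- SP4 cells. The highest sum of the SP4 arrays, 1492, was on a *Gli3*+/- array, while *Id2* read 710.1 and 316.3 on the *Gli3*+/- SP4 arrays. NK and ILC markers were mixed, with *Klrd1* at log2 +0.77, *Gzma* at +0.57, *Nkg7* at +0.36, *Klrb1c* at +0.04 and *Gata3* at +0.01. Below WT were *Ncr1* at −0.24 and *Rora* at −0.08. Plasmacytoid dendritic cell markers ran from −0.65 for *Irf8* to +0.58 for *Ly6d*. Gamma-delta T-cell markers ran from −0.09 for *Sox13* to +0.46 for *Cd163l1*. None of these passed, and the part of any of these cells in the *Id2* value was not tested. Arrays of *Gli3*-/- and WT did not overlap for 28.8% of all genes in CD69+ DP, 30.4% in SP4 and 29.1% in CD69- DP cells, against 3 (*Id2*, *Id3* and *Tcf4*), 1 (*Id2*) and 0 of the 6 genes.

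In CD69- DP cells the *Gli3*-/- differences were log2 +0.06 for *Id2* (95% interval −1.01 to 1.13), −0.06 for *Id3* (−1.04 to 0.92) and −0.04 for *Tcf12* (−0.45 to 0.36). *Tcf12* differed by +0.06 in CD69+ DP (−0.35 to 0.47) and by +0.25 in SP4 cells (−0.15 to 0.66), *Id2* by −0.22 in CD69+ DP (−1.29 to 0.85), and *Id3* by −0.10 in SP4 cells (−1.08 to 0.88). Whether *Gli3*-/- moved a gene more in 1 population than in another was tested too, and limma called 0 of the 6 genes and 0% of all genes. At an unadjusted p under 0.05 it was 0 of the 6 as well, against 2.06% of all genes for CD69+ DP minus CD69- DP, 3.87% for SP4 minus CD69+ DP and 3.08% for SP4 minus CD69- DP. The difference was log2 −0.65 for *Id2* (SP4 minus CD69- DP, SE 0.70, adjusted p = 0.9998) and −0.66 for *Id3* (CD69+ DP minus CD69- DP, SE 0.64, adjusted p = 0.9999).

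*Tcf4* in the average over populations was log2 +0.17 in *Gli3*-/- (SE 0.07, limma adjusted p = 0.9995) and +0.17 in *Gli3*+/- (SE 0.07, limma adjusted p = 0.999), and these comparisons share their WT arrays. The other averages for *Gli3*-/- were −0.25 for *Tcf3*, +0.09 for *Tcf12*, +0.03 for *Id1*, −0.25 for *Id2* and −0.29 for *Id3*. Those for *Gli3*+/- were −0.16 for *Tcf3*, +0.04 for *Tcf12*, +0.10 for *Id1*, −0.30 for *Id2* and −0.32 for *Id3*. Genotypes were not matched for sex, since *Eif2s3y*, a Y-linked gene, fell in *Gli3*-/- (log2 −4.57, SE 0.23, adjusted p = 4.82e-07), and sex and genotype cannot be told apart here.

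**Figure D3:**
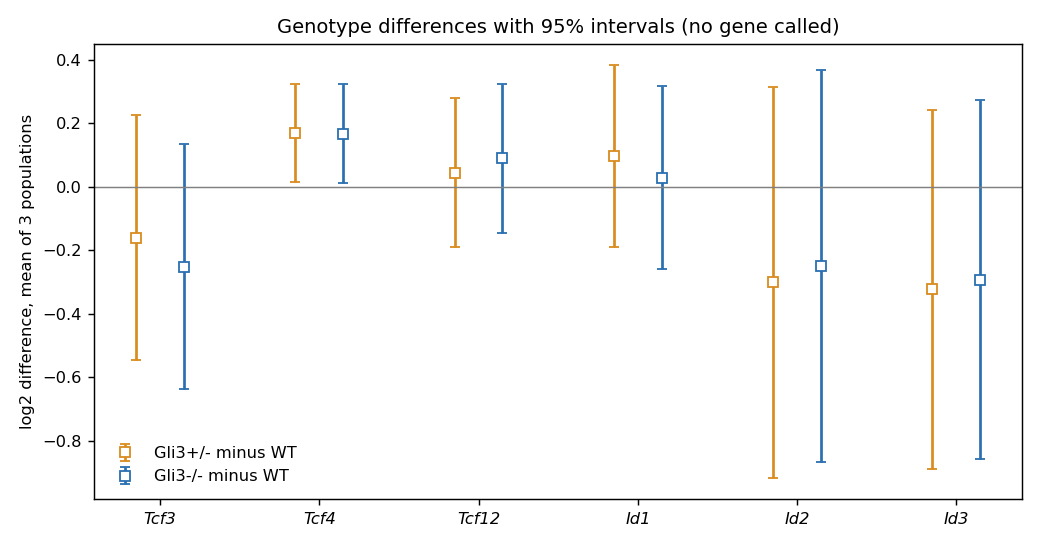
log2 difference from WT (y axis) of *Gli3*+/- and *Gli3*-/- for the 6 genes, averaged over the 3 populations, with 95% intervals. Intervals of *Tcf4* lie just above 0 (+0.17 in both genotypes) and all others include 0, and no gene passed after adjustment over all genes. The intervals count arrays of the same source in the 3 populations as separate, so they may be too narrow.

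Over all 9 groups 2 members differed between replicate numbers. Arrays numbered 2 were higher than arrays numbered 1 for *Tcf3* (log2 +0.43, SE 0.09, limma adjusted p = 0.00530), in 9 of 9 groups, and for *Id3* (log2 +0.61, SE 0.14, adjusted p = 0.00935), in 8 of 9 groups, the exception being WT CD69+ DP. Of all genes tested 11.6% passed. *Tcf3* read 291.4 on array 1 and 334.9 on array 2 of WT CD69- DP cells, 236.0 and 326.8 for *Gli3*+/-, and 242.4 and 292.9 for *Gli3*-/-. In CD69+ DP cells these pairs were 293.1 and 298.7, 246.5 and 366.0, and 177.8 and 342.8. In SP4 cells they were 270.9 and 395.6, 251.0 and 270.0, and 210.0 and 354.5. The gap was widest in *Gli3*-/- CD69+ DP cells and narrowest in WT CD69+ DP cells. Arrays numbered 2 were not higher beyond the spread for *Id1* (log2 +0.22, adjusted p = 0.137), *Id2* (+0.21, adjusted p = 0.626), *Tcf12* (+0.06, adjusted p = 0.737) or *Tcf4* (+0.02, adjusted p = 0.862).

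For *Id2* the numbers differed by population, as a test added after the data had been seen showed. Arrays numbered 2 were higher in CD69- DP cells (log2 +1.25, SE 0.17, limma adjusted p = 0.00362), but not in CD69+ DP (−0.08, adjusted p = 0.866) or SP4 cells (−0.55, adjusted p = 0.125). The difference between populations passed as well, for CD69+ DP minus CD69- DP (log2 −1.33, SE 0.25, adjusted p = 0.0325, where 0.546% of all genes passed) and for SP4 minus CD69- DP (−1.80, SE 0.25, adjusted p = 0.0141, where 0.0586% passed). In CD69- DP cells *Id2* was thus near the median row (62.7) on all 3 arrays numbered 1 and above it on all 3 numbered 2. *Id3* was also higher on arrays numbered 2 in CD69- DP cells (log2 +0.91, SE 0.21, adjusted p = 0.0424). In these tests 2.18% of all genes passed in CD69- DP, 4.59% in CD69+ DP and 2.53% in SP4 cells, and 0.207% for SP4 minus CD69+ DP, where *Id2* differed by −0.46 (adjusted p = 0.840).

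**Figure D4:**
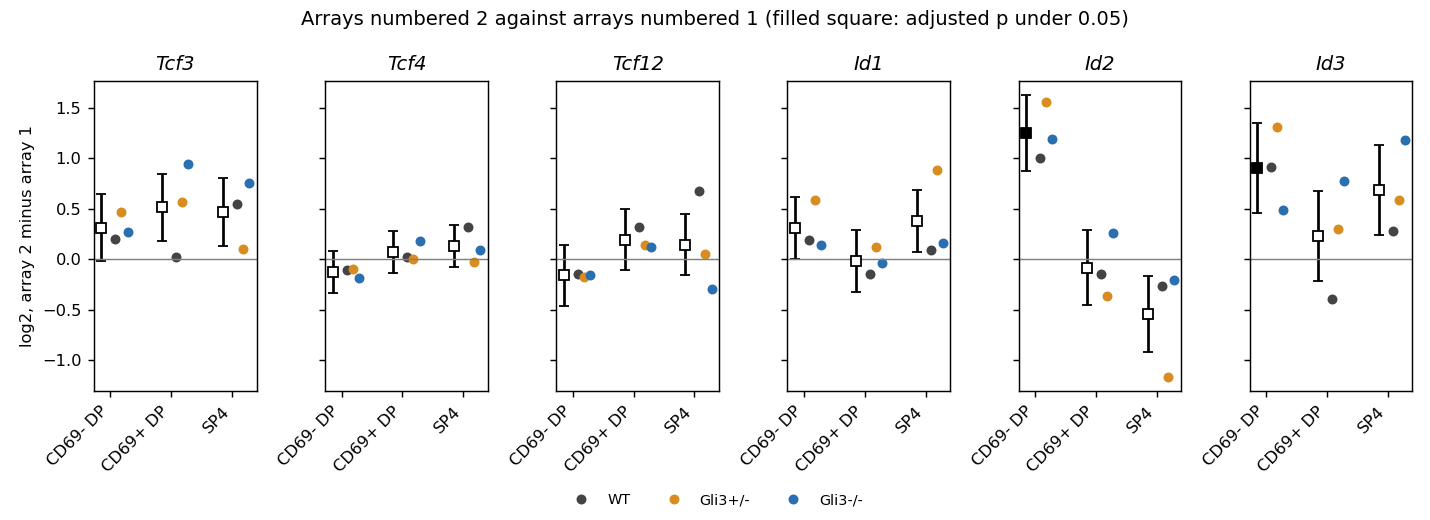
log2 difference between arrays numbered 2 and numbered 1 (y axis) of the 6 genes in each population, as squares with 95% intervals for the population and circles for the 3 genotypes. *Id2* is at +1.25 in CD69- DP, −0.08 in CD69+ DP and −0.55 in SP4 cells.

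The labels do not say what a replicate number marks. Genes listed as responding to tissue handling moved with the numbers, and *Egr1*, which is among them, is also counted below with the TCR and Egr genes. Of 12 such genes (*Fos*, *Jun* and other immediate early and heat shock genes), 10 were higher on arrays numbered 2, with *Jun* at log2 +2.59 and *Fos* at +2.29, and their summed intensity was 2267 to 4574 on arrays numbered 1 and 4221 to 8032 on arrays numbered 2. Sex-linked signals differed by number as well. In CD69- DP cells *Xist* read 52.4 and 2946 on WT arrays 1 and 2, and *Eif2s3y* 489 and 289 on those of *Gli3*+/-. The part of handling or of sex in the *Id2*, *Id3* and *Tcf3* differences was not tested. Of 11 measured E protein targets, 7 were higher on arrays numbered 2, with *Ptcra*, the pre-TCR alpha chain, at +0.74, *Rag2* at +0.57, *Hes1* at +0.50 and *Notch1* at +0.49 (median of the list +0.31, of all genes −0.01).

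Of the known targets of E proteins at the DP stage, 13 were listed and 11 analysed here. At the first step 6 fell, 0 rose and 5 did not pass (median log2 −0.63, against +0.01 for all genes). *Dntt*, the polymerase that adds nucleotides at TCR joints, fell most, from a mean intensity of 1097 to 399 (log2 −1.42, SE 0.22, adjusted p = 0.00157). *Rag2*, a subunit of the TCR gene recombinase, fell from 1909 to 1045 (log2 −0.96, SE 0.26, adjusted p = 0.0338). *Notch1*, the receptor of early T-cell commitment, fell by 0.91 on the log2 scale (adjusted p = 0.0131), and *Bcl2l1*, a survival gene of DP cells, by 0.67 (adjusted p = 0.0270). At the second step 0 of the 11 passed (median +0.03), the largest values being *Ptcra* at +0.80 (adjusted p = 0.135) and *Notch1* at +0.62 (adjusted p = 0.0945), and over both steps 5 fell (median −0.30).

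Of 7 genes that E proteins restrain until cells mature, 6 were analysed here, of which 1 rose and 1 fell at the first step and 3 rose at the second. *Il7r*, the receptor of the survival cytokine IL-7, went from a mean intensity of 23.8 to 265 and 1356 in the 3 populations, a rise at the first step (log2 +3.24, SE 0.41, adjusted p = 0.000435) and at the second (+2.45, SE 0.41, adjusted p = 0.00333). Its CD69- DP mean was dimmer than the median row and there is no detection call, so the size of the first rise is uncertain. At the second step *Ccr7*, the receptor that guides maturing cells to the medulla, rose by log2 +1.22 (adjusted p = 0.0145) and *S1pr1*, the receptor of thymic egress, by +0.96 (adjusted p = 0.000453). *Socs3*, a cytokine signal inhibitor, fell at the first step (log2 −0.42, adjusted p = 0.0310). The list's median was +0.06 at the first step and +0.85 at the second.

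Of 11 genes around the TCR signal and Egr factors, 9 rose and 1 fell at the first step (median log2 +0.85), and 0 rose and 5 fell at the second (median −0.50). They were listed because TCR signals induce Id genes, but not all are inducers. *Cd5* and *Cd69* are products of TCR signals, and *Nab1* and *Nab2* are co-repressors of Egr factors. Among them were *Nr4a1*, an orphan nuclear receptor, at +2.38 and then −0.62, and *Egr1*, an Egr factor upstream of *Id3*, at +2.14 and then −0.63. *Cd5*, a TCR-induced inhibitor of TCR signals, was at +1.85 and then −1.001. *Cd69*, whose product was used for the sort, was at +2.78, a rise that the sort itself selected for. *Nfatc3*, an NFAT factor named after its value was seen, was the gene that fell at the first step (−0.52, adjusted p = 0.00853).

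**Figure D5:**
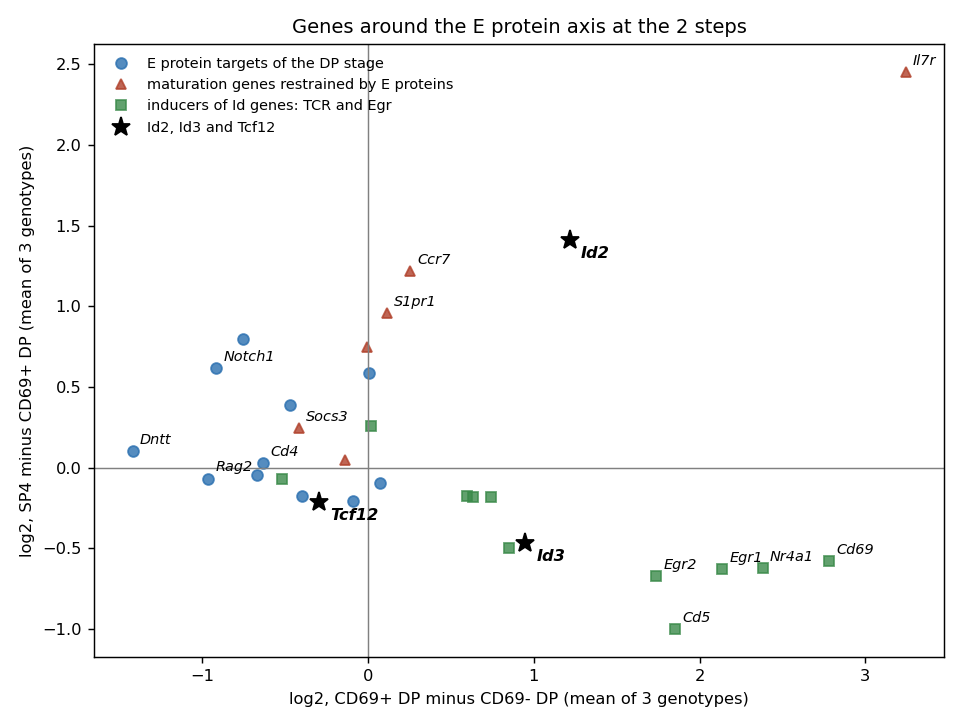
log2 difference at the first step (x axis, CD69+ DP minus CD69- DP) and at the second (y axis, SP4 minus CD69+ DP), averaged over genotypes, for 3 gene lists (coloured symbols) and *Id2*, *Id3* and *Tcf12* (stars). *Id3* (+0.95, −0.47) lies in the quadrant of *Egr1* (+2.14, −0.63), and *Id2* (+1.22, +1.41) in that of *Il7r* (+3.24, +2.45).

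Of 18 genes of BMP and TGF-beta signalling, the other signals listed as inducing Id genes, few moved. At the first step 2 rose (*Tgfbr2*, log2 +0.45, adjusted p = 0.0167, and *Bmpr1a*, +0.36, adjusted p = 0.0217, both receptors) and 16 did not pass. At the second step 1 rose, *Smad7*, an inhibitory SMAD (+0.51, adjusted p = 0.00140). The medians were +0.06 and −0.01.

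Of 17 other helix-loop-helix partners and co-factors of E proteins, 2 rose at the first step and 1 fell at the second. *Ldb1*, an adaptor of LMO and E protein complexes, rose and then fell (log2 +0.31, adjusted p = 0.00671, then −0.25, adjusted p = 0.0300). *Bhlhe40*, a repressor of the same fold, rose at the first step (+0.43, adjusted p = 0.0322). Over both steps *Ep300* and *Crebbp*, co-activators that E proteins recruit, fell by 0.33 (adjusted p = 0.00526) and 0.28 (adjusted p = 0.0214) on the log2 scale.

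CD4 and CD8 lineage factors changed at both steps. Of 8 analysed here, 5 rose at the first step, with *Tox*, needed for the CD4 lineage, at log2 +1.47, *Lef1*, a Wnt effector, at +0.99, *Gata3*, a CD4 lineage factor, at +0.85 and *Runx3*, the CD8 lineage factor, at +0.51. At the second step *Runx3* rose again (+0.64) and 3 fell, *Myb* (−0.73), *Tox* (−0.69) and *Gata3* (−0.44).

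Of 9 genes of innate-like T-cells, listed for a link to Id proteins, 2 rose at the first step and 2 at the second. Whether they depend on Id proteins was not tested. *Il2rb*, a cytokine receptor chain, rose at both (log2 +0.84 and +1.32, adjusted p = 0.0338 and 0.00344), and *Zbtb16*, the factor of innate-like T-cells, at the second (+0.55, adjusted p = 0.00100).

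In *Gli3*-/- SP4 cells none of these lists had a gene that passed. Of the 11 E protein targets 10 had a higher mean than in WT (median log2 +0.26, against −0.02 for all genes). Other genes of DP cells were higher there too, *Cd8a* by log2 +0.68 (SE 0.22, limma adjusted p = 0.913), *Cd8b1* by +0.37 and *Myb* by +0.43, none of which passed, while of the 11 thymocyte markers as a whole 7 were higher (median +0.02). The part of remaining DP cells in these values was not tested. Of the 11 TCR and Egr genes 9 had a lower mean (median −0.38). The values that differed most were +0.69 for *Rag2* (adjusted p = 0.972) and +0.49 for *Dntt* (adjusted p = 0.991), and −0.62 for *Egr1* (adjusted p = 0.952) and −0.58 for *Nr4a1* (adjusted p = 0.960). In CD69+ DP cells 9 of the 11 TCR and Egr genes had a lower mean (median −0.16) and the E protein targets were split, 5 higher and 6 lower. In CD69- DP cells 8 of the 11 E protein targets had a lower mean (median −0.06) and 6 of the 11 TCR and Egr genes a higher one (median +0.01).

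Markers of other cells also rose where *Id2* rose. From CD69+ DP to SP4, 4 of 10 neutrophil markers rose (*S100a8* by log2 +3.37, *S100a9* by +2.13), and their summed intensity was 428 to 838 in CD69+ DP and 603 to 1492 in SP4 cells, while *Elane*, their granule elastase, had means of 84.9 and 81.9. Of 8 macrophage and dendritic cell markers 3 rose (*Lyz2* by +1.71), with sums of 576 to 674 and 614 to 949. Of 7 plasmacytoid dendritic cell markers 5 rose and 1 fell (*Klk1* by +2.94, *Irf8* by +1.51), with sums of 2093 to 2423 and 2427 to 2859. Of 7 NK and ILC markers 1 rose, *Nkg7* (+0.71), and 1 fell, *Gata3*, with sums of 1406 to 1739 and 1272 to 2275, and of 4 gamma-delta T-cell markers 1 rose (*Cd163l1*, +0.42), with sums of 397 to 483 and 464 to 675. *Ncr1*, which defines NK cells, was dimmer than the median row, with means of 54.4 and 49.7. The CD69+ DP means of *S100a9*, *Lyz2* and *Klk1* were dimmer than the median row, so the sizes of their rises are uncertain. *Gata3* is also counted here as a CD4 lineage factor. *Ccr9*, with means of 1401 in CD69+ DP and 908 in SP4 cells, is a large part of the plasmacytoid sums. These counts and sums therefore do not track other cells alone. The part of other cells in the *Id2* values was not tested.

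At the first step 0 of 10 neutrophil and 0 of 8 macrophage and dendritic cell markers passed. Of the 7 plasmacytoid dendritic cell markers 2 rose and 2 fell, and of the 4 gamma-delta T-cell markers 2 rose (*Cd163l1* by +1.04), with sums of 266 to 324 in CD69- DP cells. There 3 of 7 NK and ILC markers rose, with sums of 982 to 1331 in CD69- DP and 1406 to 1739 in CD69+ DP cells. They were *Nkg7* (log2 +0.94), *Gata3*, also a CD4 lineage factor, and *Klrd1*, which was dimmer than the median row in both. Markers of B cells (6), red cells (2), thymic epithelium (7) and mesenchyme (7) did not pass at either step. Of 7 endothelial markers 1 fell at the second (*Pecam1*, −0.32).

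The genes whose group means were most like those of each changed member are given as a description, from 10434 named genes at or above the median row. For *Id2* these were *Ccl22*, a chemokine, *Ccr8*, a chemokine receptor, *B4galnt1*, a ganglioside synthase, *Slc15a1*, a peptide transporter, and *Cd40lg*, the CD40 ligand of helper T-cells, with r of 0.994 to 0.996 over the 9 means. *Ccr8* went from a mean of 39.7 in CD69- DP to 114 in CD69+ DP and 482 in SP4 cells, and *Cd40lg* from 26.9 to 73.2 and 342. Those most opposite to *Id2* were *Ccdc186*, *Zfp39* and *Glcci1* (r −0.990 to −0.992). For *Id3* they were *Hdac5*, a histone deacetylase, *Lrp10*, *Arhgap30*, *Gata3* and *Stk26*, a kinase (r 0.962 to 0.968), and the opposite ones *Sap30*, *Zfp41* and *Tgfbr1* (r −0.971 to −0.990). Over the 18 single arrays *Stk26* had r of 0.37 with *Id3*, and *Sap30* −0.25, so these likenesses were weaker over single arrays. For *Tcf12* they were *Usp45*, *Capn3*, a calpain protease, *Ifngr1*, the interferon-gamma receptor, *Prkcb*, a protein kinase C, and *Arid2*, a chromatin remodeller (r 0.986 to 0.992), and the opposite ones *Chl1*, an adhesion molecule, *Slc16a10*, an amino acid transporter, and *Rin3* (r −0.985 to −0.990).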

How the data were processed

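RNA of FACS-sorted E18.5 thymocytes was hybridised to 18 Affymetrix Mouse Gene 2.0ST arrays, 2 for each of 9 groups. The deposited intensities are the authors' normalised values, made in R with oligo by RMA and given on a linear scale (versions not given in the sources used here), and log2 was taken here with a pseudocount of 0, where a log2 scale had been assumed. Of 41345 rows, 23521 had 1 gene symbol, 1820 several and 16004 none, and the row with the highest mean was kept for each of 22180 genes. Columns of no listed sample numbered 0. A fit of 9 group means with limma 3.58.1 (R 4.3.3; 9 residual degrees of freedom) was made on all genes, Benjamini-Hochberg adjusted over all genes and called at an adjusted p under 0.05, and was tested on simulated data. Up to 4 genes of a list were named, those that passed with the largest log2 change. Likeness was ranked by Pearson r over group means, 5 genes like and 3 opposite. The members, lists and tests were chosen with earlier results of these data known. Alternatives were a replicate block, other normalisations, filters and priors, single replicate numbers, and leaving out each array. The number of arrays limits the precision.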

Additional observations from a re-analysis of the deposited data

Results flagged for a closer look

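In SP4 cells the *Tcf4* intensity of the first WT array, 101.4, lay apart from the other 5 arrays, of which the nearest read 119.3. On the log2 scale the gap was 0.696 of the whole range. Such a gap was looked for in 18 sets of 6 arrays, and chance gives about 1 in 20. The difference between arrays numbered 2 and 1 in *Id2* was not the same in each population, by log2 −1.33 for CD69+ DP minus CD69- DP (limma adjusted p = 0.0325) and −1.80 for SP4 minus CD69- DP (adjusted p = 0.0141). *Id2* was higher on array 2 in 3 of 3 genotypes of CD69- DP cells and lower on it in 3 of 3 genotypes of SP4 cells.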

How the results depend on the processing

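The rise of *Id2* at the second step (log2 1.18 to 1.64) and over both steps (1.73 to 3.53) was called under all 23 alternatives run for each, and the fall of *Tcf12* over both steps (−0.66 to −0.35) under 22 of 23, the exception being arrays numbered 2 alone. With a replicate block, genes called numbered 2673 at the first step (1728 without) and 2475 at the second (1365 without), and with the block by genotype 2605 and 2411. Either block called 1 of the 6 genes in WT at the first step (*Id3*, adjusted p = 0.0179 with the plain block). The titles give same-numbered arrays of a genotype 1 source name in all 3 populations without saying what it names, which the block by genotype follows. Across genotypes they share a number alone, and 34 of 36 correlations of deviations between same-numbered arrays, not all, were over 0.1 (0.0777 to 0.549), so the plain block is a hint from the data and not the design. The block changed no other call on the 6 genes. At an unadjusted p under 0.05 the plain block took the count for genotype in CD69+ DP cells from 0 to 1 of 6 (*Id3*, in *Gli3*-/- and *Gli3*+/-) and in the *Gli3*-/- average from 1 to 2 (*Tcf3* and *Tcf4*), and *Id3* and *Tcf3* are the members that differed by replicate number. Arrays numbered 1 alone gave 2837 genes at the first step, arrays numbered 2 alone 1056, and 1426 over both steps, with 1 of the 6 genes called at the first step and 1 over both. At the first step 0 of the 6 were called with all rows tested and 1 with a trended, robust prior, and 1 was called in WT at the second step when only the compared arrays were fitted (*Id2*, adjusted p = 0.0446). Signs turned for small values under quantile normalisation (*Tcf3* 0.049, −0.064 and −0.015 at the first step, the second and both, *Tcf4* −0.049 at the second, *Tcf12* 0.0080 for *Gli3*-/- in CD69- DP), under cyclic loess (*Tcf3* 0.033 and −0.016, *Tcf4* −0.00748, *Tcf12* 0.015), within arrays numbered 1 (*Tcf4* −0.012 and *Id1* −0.12 at the second step, *Tcf3* −0.075 over both, *Id1* −0.15 in *Gli3*+/-) and within arrays numbered 2 (*Tcf3* 0.075 and *Tcf4* 0.042 at the first step, *Tcf4* 0.088 over both, *Tcf12* −0.11 in *Gli3*-/- and −0.092 in *Gli3*+/-). The cause was not tested. Leaving out 1 array at a time, genes called ran from 980 to 1869 at the first step and 791 to 1870 at the second, and members called at the first from 0 to 2. The values whose sign turned ran, at the first step, from −0.18 to 0.13 for *Tcf3*. At the second step they ran from −0.13 to 0.19 for *Tcf3*, −0.037 to 0.071 for *Tcf4*, −0.070 to 0.23 for *Id1* and, in *Gli3*-/- alone, −0.82 to 0.36 for *Id3* and −0.29 to 0.0044 for *Tcf12*. Over both steps they ran from −0.12 to 0.13 for *Tcf3*, −0.095 to 0.013 for *Tcf4* and −0.27 to 0.025 for *Id1*. For *Gli3*-/- against WT, *Tcf12* ran from −0.12 to 0.033 in CD69- DP, −0.10 to 0.22 in CD69+ DP, −0.085 to 0.59 in SP4 and −0.023 to 0.20 on average, *Id1* from −0.0029 to 0.061 on average, *Id2* from −0.54 to 0.66 in CD69- DP, and *Id3* from −0.51 to 0.40 in CD69- DP and −0.69 to 0.49 in SP4 cells. For *Gli3*+/- the averages ran from −0.050 to 0.24 for *Id1* and −0.068 to 0.16 for *Tcf12*. The *Gli3*-/- effect differed by −0.88 to 0.32 for *Id2* (CD69+ DP minus CD69- DP) and by −0.64 to 0.54 for *Id3* (SP4 minus CD69- DP).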
